A study of Mus musculus with 6 samples.

Results

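The mitochondrial solute carriers examined here are the 46 genes of the count table, out of 24411, whose symbol is Slc25a followed by a number. 1 further gene of that naming series was not analysed here. RNA was measured by sequencing in extensor digitorum longus (EDL), a fast-twitch muscle of the hind limb, taken from C57BL/6J mice at 50 weeks of age. Both groups carried floxed alleles of Akt1 and Akt2, the kinases that relay most of the insulin signal in muscle. The 3 control mice carried these alleles alone (Akt1/2-floxed). The 3 mAktDKO mice carried in addition a Cre recombinase knocked in at the myosin light-chain Mlc1f locus, which deletes both genes in skeletal muscle fibres and mostly in fast-twitch ones. The whole muscle was used, so the RNA of vessels, fat, nerve and connective tissue was measured along with that of the fibres, to which Mlc1f expression is largely limited. The study describes its mice as male unless it states otherwise. The control columns of the table are numbered 2 to 4 and the mAktDKO columns 1 to 3, and the mice are named by these numbers.

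Carriers of this family sit, with few exceptions, in the inner mitochondrial membrane, which is closed to most solutes. Each one exchanges or imports a small set of them: ADP against ATP, phosphate, the acids of the citric acid cycle, amino acids, or cofactors made in the cytosol. In muscle the adenine nucleotide and phosphate carriers feed ATP synthase with its substrates and release the ATP that contraction uses, and the aspartate/glutamate and oxoglutarate carriers form the malate-aspartate shuttle, which brings the electrons of glycolytic NADH to the respiratory chain. The proteins are built from repeats of one helical module, and each repeat carries a signature at the end of its first helix, in which a proline is followed, after any residue, by an acidic residue and, after any further pair of residues, by a basic one.

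That signature was read from the reference coding sequences of GENCODE M21 on GRCm38 (mm10), and it was more frequent in the family than in other proteins, a count that uses no expression values. As the signature is a known trait of the family, the direction of this difference was given in advance. At least 3 matches were found in 26 of the 46 carriers (56.5%), against 2.33% of 21457 other protein-coding genes. At least 1 match was found in 43 carriers (93.5%), against 26.5% of the other genes. Slc25a46, Slc25a51 and Slc25a53 had none by this strict spelling. The coding strand of 1 signature is shown for the carriers on which the results below turn, with the codons of the signature in capitals. Those of Slc25a4 (chr8:46209191-46209238, minus strand, exon 2 of 4), Slc25a3 (chr10:91118767-91118814, minus strand, exon 5 of 8), Slc25a12 (chr2:71296768-71296815, minus strand, exon 11 of 18), Slc25a11 (chr11:70646171-70646218, minus strand, exon 2 of 8), Slc25a26 (chr6:94507541-94507588, plus strand, exon 2 of 10) and Slc25a5 (chrX:36797113-36797160, plus strand, exon 2 of 4) are all exonic and coding.
Slc25a4: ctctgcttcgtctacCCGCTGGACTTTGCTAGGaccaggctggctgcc
Slc25a3: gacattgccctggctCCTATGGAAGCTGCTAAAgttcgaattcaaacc
Slc25a12: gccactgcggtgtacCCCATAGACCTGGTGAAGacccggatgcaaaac
Slc25a11: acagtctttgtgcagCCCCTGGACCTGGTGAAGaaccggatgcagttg
Slc25a26: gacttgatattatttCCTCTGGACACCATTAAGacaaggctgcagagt
Slc25a5: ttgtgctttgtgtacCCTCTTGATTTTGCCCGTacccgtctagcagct

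Slc25a4 and Slc25a5, which encode the adenine nucleotide translocases ANT1 and ANT2, are the closest pair among these, and their values differed between groups in opposite directions below, so the question is whether short reads can tell them apart. Their coding sequences are both 897 bases long and are identical at 695 of them (77.5%), and the proteins are identical at 267 of 298 residues (89.6%). The window that follows lies in exon 3 of 4 in both genes (Slc25a4, chr8:46208402-46208449, minus strand; Slc25a5, chrX:36797825-36797872, plus strand), over a run of residues typical of ADP/ATP carriers, and the 7 bases that differ are in capitals.
Slc25a4: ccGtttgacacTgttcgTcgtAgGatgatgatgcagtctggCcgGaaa
Slc25a5: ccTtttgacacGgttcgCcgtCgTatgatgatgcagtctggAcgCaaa
The longest stretch that the coding sequences share is 20 bases, shorter than a read of 37 bases, and no stretch of 37 bases of the Slc25a4 transcript occurs in any other gene. Slc25a5 shares none with another carrier but 61.38% of its 37-base stretches with 11 other genes, of which Gm5560 holds the most, so its level is uncertain where the counting could have placed reads in these copies. Among the other tested carriers the share passed 5% only in Slc25a36 (13.06%), Slc25a40 (12.59%), Slc25a37 (8.68%) and Slc25a3 (5.71%). Of the 276 carrier values in the table, 1 was not a whole number, that of Slc25a4 in mAktDKO mouse 2, and all 6 values of Slc25a5 were whole.

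The libraries held totals of 13738794.97 to 15445523.03 estimated counts, and levels are given as CPM, counts scaled to library size after trimmed-mean (TMM) correction. Akt2, 1 of the deleted genes, was at 51.3, 49.12 and 52.73 CPM in mAktDKO mice 1 to 3 and at 172.1, 133.1 and 142.6 CPM in control mice 2 to 4 (log2 fold change -1.55 ± 0.11, SE; edgeR adjusted p = 0.000923), so the labels fit the RNA. Akt1 was at 51.36 to 58.9 CPM in mAktDKO and 65.51 to 66.53 CPM in control mice (log2 fold change -0.25; edgeR adjusted p = 0.114). Control mouse 2 stood apart from the rest by chi-square per degree of freedom (25.39 to 65.79 with the other libraries, against 7.22 to 26.92 among the others), and the ratio of each carrier sum to control is given without it as well. All 7 skeletal muscle fibre markers were detected and summed to 114400 to 128000 CPM in mAktDKO and 125800 to 137400 CPM in control mice. Each of the 7 was lower in mAktDKO, their median being -0.18 on the log2 scale, and none at an unadjusted p under 0.05. Markers of other cells were on the other side. All 5 adipocyte markers were higher (median 1.04, sums 51.84 to 157.4 against 40.63 to 88.31 CPM), as were all 5 macrophage markers (0.37, 88.04 to 111.3 against 59.43 to 98.12 CPM), all 5 fibroblast markers (0.57, 18280 to 21740 against 7284 to 18400 CPM), 4 of 5 endothelial markers (0.29, 404.4 to 470.1 against 333.8 to 433.6 CPM) and 6 of 7 slow fibre markers (0.44, 679.8 to 1317 against 607.4 to 884.2 CPM). All 4 Schwann cell markers (0.26, 234.4 to 319.2 against 212.5 to 251.2 CPM), all 3 satellite cell markers (0.22, 6.467 to 8.027 against 5.746 to 6.274 CPM) and all 5 erythroid markers (0.47, 149.8 to 320.1 against 113.9 to 167.7 CPM) were also higher. Those higher at an unadjusted p under 0.05 (background 11.4%) were 4 of 5 adipocyte, 2 of 7 slow fibre, 2 of 5 each of endothelial, macrophage, fibroblast and erythroid, 1 of 4 Schwann cell and 1 of 3 satellite cell markers. Among the erythroid markers Hbb-bs, 1 of several closely similar globin genes between which reads can be split, had 370, 154 and 146 counts in mAktDKO mice and 0 in all 3 control mice (edgeR adjusted p = 0.018), although the labels give both groups the same strain. Hbb-b1, another of these globin genes, had 2749, 2509 and 1146 counts in mAktDKO mice and 1895, 1562 and 1054 in control mice. What the difference in Hbb-bs bears on was not tested. In whole muscle, fewer cells of a type and less RNA per cell cannot be told apart, and the part of these shifts in the carrier results was not tested beyond the scaling on fibre markers given with the sums.

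Of the 46 carriers, 37 had enough reads to be tested. Slc25a4 was the most abundant by far and, with Slc25a3, Slc25a12 and Slc25a11, was lower in every mAktDKO mouse than in any control mouse, by 18.8% to 27.8% of the control mean. For Slc25a11 this separation did not hold with scaling by library totals. Slc25a26, the carrier of the methyl donor S-adenosylmethionine, was lower by 33.3%, and Slc25a5 and Slc25a24 were higher by 22% and 27%. None of the 37 passed the adjusted p of 0.01 that the study used, by the quasi-likelihood test of edgeR, adjusted over all 12892 genes by the Benjamini-Hochberg method, a threshold that 0.0233% of all tested genes passed. At an adjusted p under 0.05, which 1.18% of all tested genes passed, 1 carrier was called, Slc25a26. That call (adjusted p = 0.0474) ended with scaling by library totals (0.0783) and when any mouse but control mouse 4 was left out (0.0506 to 0.22). In turn, Slc25a3 passed 0.05 with no filter (adjusted p = 0.0404), with at least 10 counts in every mouse (0.0492) and without control mouse 4 (0.0376), and Slc25a4 passed it without control mouse 4 (0.0447). DESeq2, the tool with which the study used its threshold of 0.01, gave 30 of the carriers an adjusted p. It called 2 of them at 0.01, Slc25a3 and Slc25a4, both lower in mAktDKO, where its background was 3.46% of 9781 genes.

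In direction, 22 of the 37 tested carriers (59.5%) were lower in mAktDKO and 15 were higher, and their median was -0.10 on the log2 scale, against 47.5% of all tested genes lower and a median of 0.02. With scaling by library totals, which moved the median of all genes to 0.16, 16 of the 37 were lower, and 24 of the 37 lay below that median. This scaling added 0.13 to 0.15 to the log2 fold change of every tested carrier, which left Slc25a12 at -0.19, Slc25a11 at -0.16 and Slc25a15 at -0.05. The fold changes ran from -0.79 to 0.66 on the log2 scale. At an unadjusted p under 0.05, 7 carriers (18.9%) were lower, where the background was 13.1% of all tested genes, and 2 (5.41%) were higher, where it was 11.4%. The groups did not overlap, with all mAktDKO mice below all control mice, in 11 carriers (29.7%, background 16.6%), and with all of them above in 2 (5.41%, background 14.6%). These tallies are of TMM-scaled CPM. By library totals the groups overlapped in some of the 11, Slc25a11, Slc25a14, Slc25a15 and Slc25a30 among them.

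**Figure D1:**
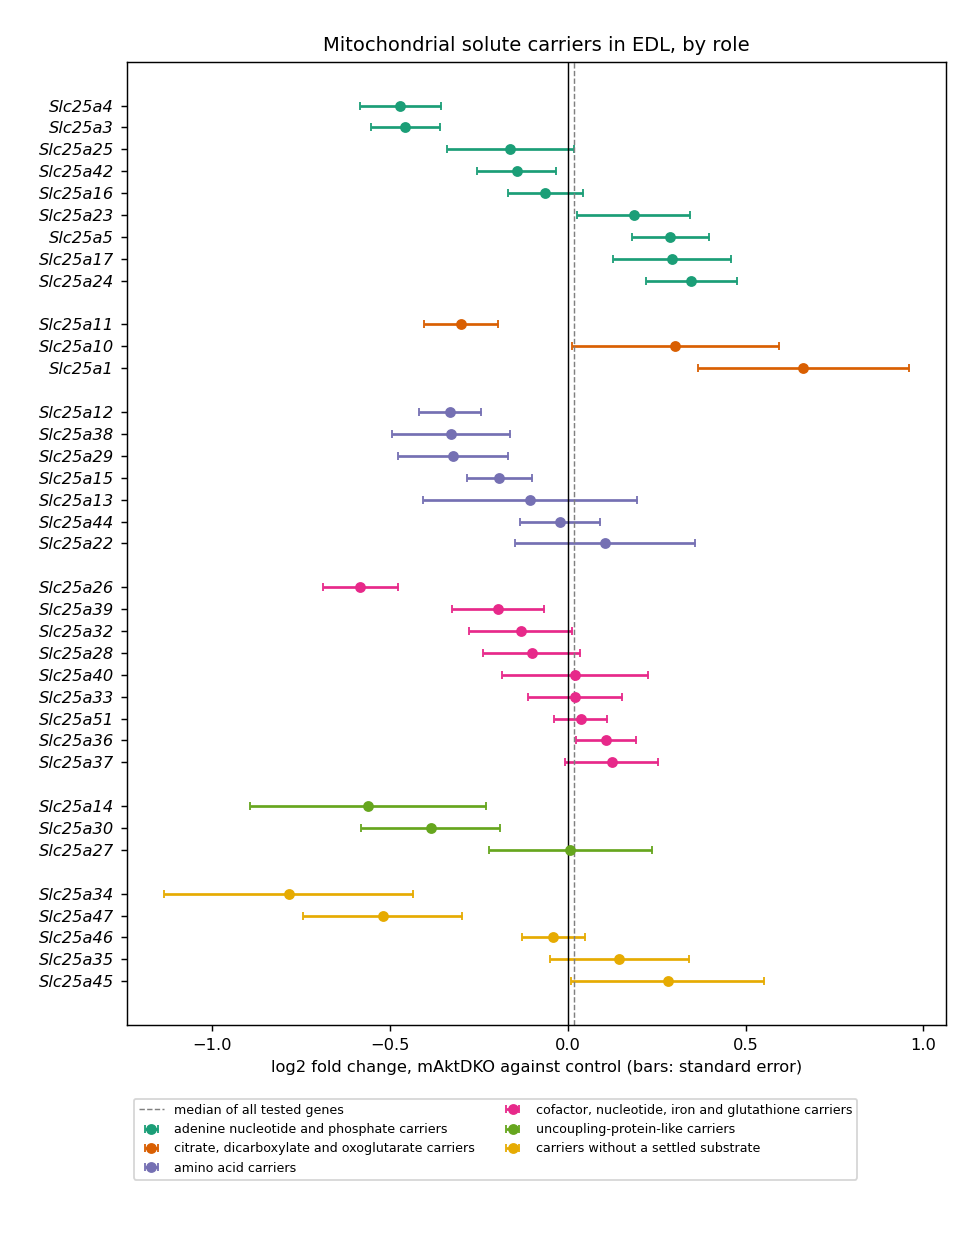
Here 36 tested carriers are listed by role, each with its log2 fold change of mAktDKO against control (points) and the standard error of the fit (bars, n = 3 mice per group). The dashed line marks the median of all tested genes. Points lie on both sides of 0 in each of the 6 role groups, and the Slc25a4 and Slc25a3 points, near -0.47 and -0.46, lie at the low end of the first group.

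The first role group holds the adenine nucleotide and phosphate carriers, 9 of 11 of them tested, 5 lower and 4 higher, around a median of -0.06 on the log2 scale. Slc25a4 (chr8:46207168-46211062, minus strand), the ANT1 of heart and skeletal muscle, exchanges cytosolic ADP for ATP made in the matrix. It was at 2068, 1792 and 1979 CPM in mAktDKO mice 1 to 3 and at 2977, 2773 and 2341 CPM in control mice 2 to 4. The groups were apart, with control mouse 4 nearest to the mAktDKO mice. The means were 1946 ± 141.3 and 2697 ± 324.5 CPM (SD, n = 3), and the log2 fold change was -0.47 ± 0.12 (SE; edgeR adjusted p = 0.0691, DESeq2 adjusted p = 0.00155). Without control mouse 2 it was -0.39, and without control mouse 4, -0.56.

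Slc25a3 (chr10:91116574-91124046, minus strand) brings in the phosphate that ATP synthase joins to ADP. It was at 449.2, 414.5 and 430.5 CPM in mAktDKO and at 629, 622.8 and 524.2 CPM in control mice. Again every mAktDKO mouse was below every control mouse and control mouse 4 was the lowest of its group. The log2 fold change was -0.46 ± 0.10 (SE; edgeR adjusted p = 0.0557, DESeq2 adjusted p = 0.000654), of nearly the same size as that of Slc25a4.

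Slc25a5 (chrX:36795597-36798808, plus strand), the ANT2 of proliferating and non-muscle cells, does the same exchange as ANT1. Its level was a small part of that of Slc25a4: per kilobase of transcript, 40.07 CPM in mAktDKO and 32.84 CPM in control mice, against 1011 and 1401 CPM for Slc25a4. It was at 53.07, 49.3 and 46.7 CPM in mAktDKO and at 35.45, 46.18 and 40.52 CPM in control mice, so that the groups were apart, by a narrow margin between mAktDKO mouse 3 and control mouse 3. The log2 fold change was 0.29 ± 0.11 (SE; edgeR adjusted p = 0.153). The ratio of Slc25a4 to Slc25a5 counts was 38.97, 36.34 and 42.39 in mAktDKO and 83.97, 60.06 and 57.77 in control mice. The mean ratio was 39.23 ± 3.03 in mAktDKO and 67.27 ± 14.51 in control mice (SD, n = 3), a log2 difference of -0.76. The 2-sided exact permutation test gave p = 0.1, the smallest that 3 mice against 3 allow, and 0.35 after adjustment over the 7 ratios of close pairs compared. ANT4, encoded by Slc25a31 and known from the testis, had 2 counts in control mouse 2 and 0 in the other 5 mice.

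The calcium-regulated carriers of ATP-Mg against phosphate set the total of adenine nucleotides in the matrix. Slc25a25, by far the most abundant of them, was at 176.1, 187.8 and 186.6 CPM in mAktDKO and at 140.9, 229.3 and 245.6 CPM in control mice. The mAktDKO mice lay between the control mice, whose mouse 2 was the lowest of all, and the log2 fold change was -0.16 ± 0.18 (SE; edgeR adjusted p = 0.598). It rested on single control mice, at -0.37 without control mouse 2 and at -0.01 without control mouse 4, and it was -0.03 with scaling by library totals. Slc25a24 (chr3:109123149-109168409, plus strand) was at 12.87, 12.34 and 11.04 CPM in mAktDKO and at 8.32, 9.63 and 10.58 CPM in control mice. Every mAktDKO mouse was above every control mouse, with a log2 fold change of 0.35 ± 0.13 (SE; edgeR adjusted p = 0.148). Slc25a23 was at 15.72, 18.09 and 14.13 CPM in mAktDKO and at 17.41, 12.47 and 12.25 CPM in control mice, which overlapped. The ratio of Slc25a25 to Slc25a24 counts was 13.68, 15.22 and 16.9 in mAktDKO and 16.93, 23.81 and 23.2 in control mice. These barely stood apart, with mAktDKO mouse 3 next to control mouse 2, and the exact permutation test gave p = 0.1, or 0.35 after adjustment over the 7 ratios. The ratio of Slc25a25 to Slc25a23 overlapped between groups (exact permutation p = 0.4). Slc25a41, the short member of this subgroup that lacks the calcium-binding part, had 1 count in 1 control mouse.

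The other tested members of this group were Slc25a42 and Slc25a16, which are linked to coenzyme A in the matrix, and Slc25a17, a peroxisomal carrier. Their log2 fold changes were -0.14, -0.06 and 0.29, and each overlapped between groups. Without control mouse 2 that of Slc25a42 was -0.04 and that of Slc25a17 was 0.15, and without control mouse 3 that of Slc25a42 was -0.23.

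**Figure D2:**
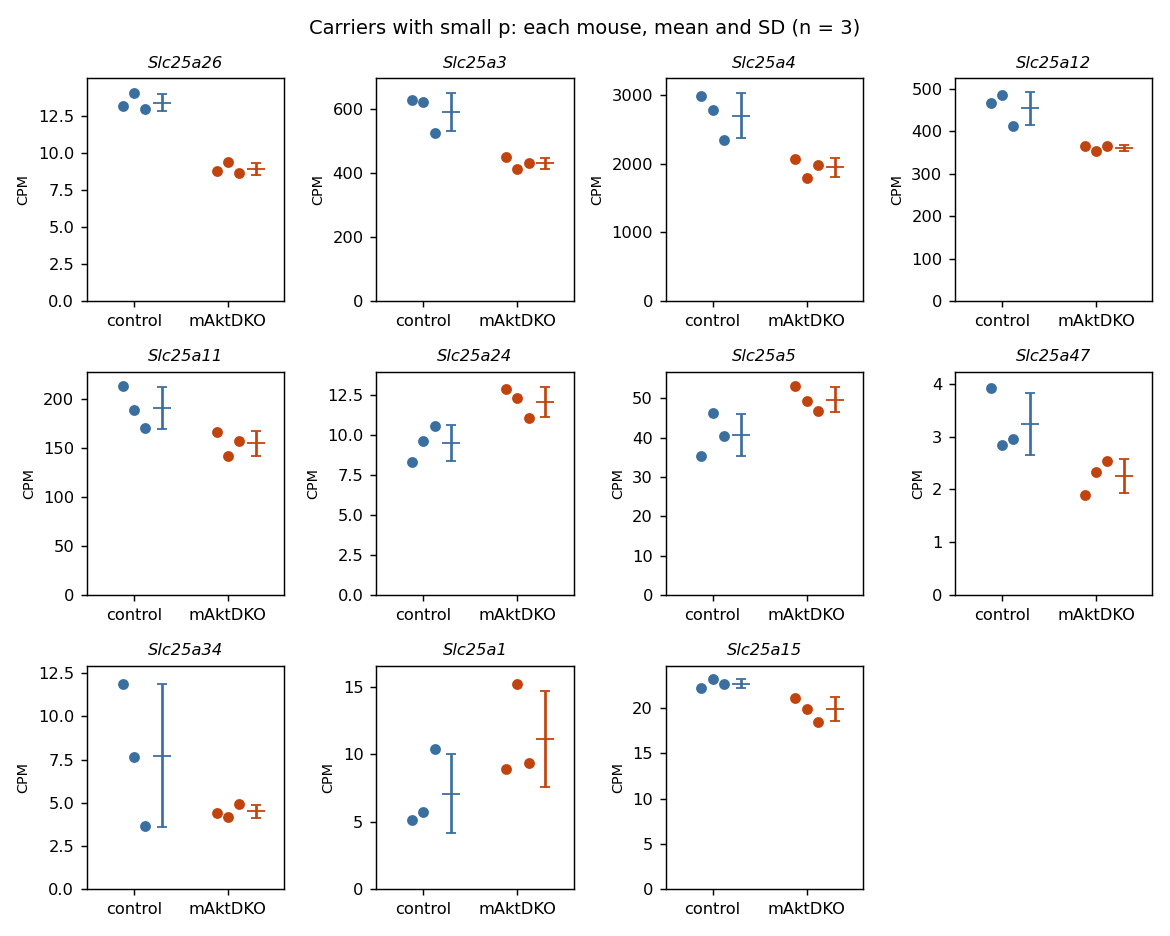
Levels in CPM (linear axes from 0) of 11 carriers with the smallest p, 1 panel each, with 1 point per mouse and the mean and SD of each group (n = 3) beside the points. Control and mAktDKO points do not overlap in 9 of the panels, and they overlap in those of Slc25a34 and Slc25a1. Among all tested genes, 16.6% did not overlap with mAktDKO below and 14.6% with mAktDKO above. The panels were picked by p in the same data, so their count does not describe the carriers as a whole.

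The carriers of citrate, dicarboxylates and oxoglutarate were split, with 3 of 4 tested, 1 lower and 2 higher. Slc25a11 (chr11:70644019-70647531, minus strand), which exchanges oxoglutarate for malate in the malate-aspartate shuttle, was at 166.2, 141.6 and 157 CPM in mAktDKO and at 213.1, 188.8 and 170.3 CPM in control mice. The groups were apart by the small gap between mAktDKO mouse 1 and control mouse 4, with a log2 fold change of -0.30 ± 0.10 (SE; edgeR adjusted p = 0.132). By library totals they overlapped, with mAktDKO mouse 1 (2621 of 14696401.3 counts) above control mouse 4 (2253 of 13738794.97).

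Slc25a1, which exports citrate for the synthesis of fatty acids and sterols, was at 8.88, 15.22 and 9.33 CPM in mAktDKO and at 5.10, 5.69 and 10.43 CPM in control mice. Its log2 fold change of 0.66 ± 0.30 was the highest of the tested carriers, but the groups overlapped (edgeR adjusted p = 0.206), and it ran from 0.37 without mAktDKO mouse 2 to 1.047 without control mouse 4. mAktDKO mouse 2 was the highest of its group and control mouse 4 the highest of its own. Acly, which splits the exported citrate, was likewise highest in these 2 mice, at 47.3, 74.88 and 53 CPM in mAktDKO and 30.97, 30.64 and 58.14 CPM in control mice. So was the adipocyte marker Adipoq, at 16.87, 21.86 and 5.69 CPM in mAktDKO and 5.94, 4.60 and 9.53 CPM in control mice, except that mAktDKO mouse 1 was also high. The part of fat tissue in the level of Slc25a1 was not tested. The dicarboxylate carrier Slc25a10 overlapped between groups (log2 fold change 0.30, from 0.11 without mAktDKO mouse 1 to 0.55 without control mouse 4), and 11.27% of its exon bases lie opposite another gene. The oxoadipate carrier Slc25a21 had 1 to 3 counts per mouse and was not tested.

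Of the 9 amino acid carriers 7 were tested, 6 of them lower, around a median of -0.19 on the log2 scale. Slc25a12 (chr2:71274270-71367781, minus strand), or aralar, is the aspartate/glutamate carrier of muscle and brain and the other carrier of the malate-aspartate shuttle. It was at 365.2, 353.6 and 365.3 CPM in mAktDKO and at 466.4, 485.6 and 411.7 CPM in control mice. The mAktDKO mice lay close together and below all control mice, and the log2 fold change was -0.33 ± 0.09 (SE; edgeR adjusted p = 0.0805, DESeq2 adjusted p = 0.0131). Its liver-type paralog Slc25a13, or citrin, was near the low end of what was tested, at 1.46, 0.96 and 1.03 CPM in mAktDKO and 1.33, 1.09 and 1.29 CPM in control mice, and overlapped. The ratio of the pair also overlapped (exact permutation p = 0.6).

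Slc25a15, which brings ornithine into the matrix, was at 21.18, 19.95 and 18.51 CPM in mAktDKO and at 22.23, 23.27 and 22.68 CPM in control mice. The groups were apart, with a log2 fold change of -0.19 ± 0.09 (SE; edgeR adjusted p = 0.228). Slc25a29, a carrier of basic amino acids, was also lower in every mAktDKO mouse (log2 fold change -0.32, 4.44 to 5.62 against 5.76 to 6.43 CPM). Slc25a38, the glycine carrier used in haem synthesis, Slc25a44, which carries branched-chain amino acids, and the glutamate carrier Slc25a22 overlapped between groups, with log2 fold changes of -0.33, -0.02 and 0.10. The glutamate carrier Slc25a18, which pairs with Slc25a22, had 1 count in each of 3 mice and 0 in the others, so the ratio of the pair was not formed. Slc25a2, a further ornithine carrier, had 1 to 14 counts per mouse and was not tested.

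The carriers of cofactors, nucleotides, iron and glutathione were all tested, all 10 of them, with 5 lower, 5 higher and a median of -0.04 on the log2 scale. Slc25a26 (chr6:94500295-94604659, plus strand) supplies the matrix with S-adenosylmethionine, from which mitochondrial RNA, proteins and coenzyme Q receive methyl groups. It was at 8.75, 9.35 and 8.64 CPM in mAktDKO and at 13.14, 14.01 and 12.93 CPM in control mice. The gap between the groups was wider than the spread within either, and the log2 fold change was -0.58 ± 0.11 (SE; edgeR adjusted p = 0.0474, DESeq2 adjusted p = 0.0173). 7.49% of its exon bases lie opposite exons of Lrig1, and whether the counting used strand is not given in the sources used here.

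The mitoferrins Slc25a37 and Slc25a28 bring in iron. Slc25a37 was at 14.65, 15.69 and 15.7 CPM in mAktDKO and at 12.86, 16.85 and 12.55 CPM in control mice. Slc25a28 was at 9.57, 8.81 and 11.04 CPM in mAktDKO and at 11.89, 9.48 and 10.13 CPM in control mice. Both overlapped, as did their ratio (exact permutation p = 0.4). Slc25a39 and Slc25a40 bring in glutathione. Slc25a39 was at 30.56, 25.28 and 21.33 CPM in mAktDKO and at 31.25, 28.23 and 29.03 CPM in control mice. Slc25a40 was at 3.995, 4.19 and 5.14 CPM in mAktDKO and at 5.17, 4.60 and 3.33 CPM in control mice. Neither these nor their ratio were apart (exact permutation p = 0.4).

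The pyrimidine nucleotide carriers Slc25a33 and Slc25a36 supply precursors for mitochondrial DNA and RNA. Slc25a33 was at 14.9, 12.28 and 16.66 CPM in mAktDKO and at 15.59, 13.86 and 13.68 CPM in control mice. Slc25a36 was at 43.37, 44.27 and 48.41 CPM in mAktDKO and at 39.5, 44.21 and 42.57 CPM in control mice. Neither was apart, nor was the ratio of the pair (exact permutation p = 0.6). The NAD carrier Slc25a51, the most abundant of this group, was at 97.77, 97.46 and 102.6 CPM in mAktDKO and at 100.3, 97.54 and 92.62 CPM in control mice, with a log2 fold change of 0.04 ± 0.07 (SE; edgeR adjusted p = 0.79). Slc25a32, a carrier of folate and FAD, had a log2 fold change of -0.13 and overlapped.

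The uncoupling-protein-like carriers Slc25a14, Slc25a30 and Slc25a27 were all low, at 0.69 to 5.33 CPM. Slc25a14 and Slc25a30 were lower in every mAktDKO mouse than in any control mouse, with log2 fold changes of -0.56 ± 0.33 and -0.39 ± 0.19 (SE), and neither reached an unadjusted p of 0.05. That of Slc25a14 was -0.88 without mAktDKO mouse 2, and that of Slc25a30 was -0.26 without control mouse 3. Slc25a14 was apart by a narrow margin, between mAktDKO mouse 2 at 1.198 CPM and control mouse 4 at 1.21 CPM. Its counts were 11, 20 and 10 in mAktDKO and 20, 17 and 16 in control mice. Slc25a27 had a log2 fold change of 0.01.

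Of the 9 carriers without a settled substrate 5 were tested. Slc25a34 had the lowest fold change of all tested carriers (-0.79 ± 0.35, SE; edgeR adjusted p = 0.205), and it rested on the spread of the control mice, at 11.89, 7.66 and 3.63 CPM, against 4.38, 4.19 and 4.94 CPM in mAktDKO. When control mouse 2 was left out, this came to -0.33, and when control mouse 4 was left out, to -1.12 (edgeR adjusted p = 0.0399). Slc25a47, known from liver, was at 1.90, 2.34 and 2.54 CPM in mAktDKO and at 3.92, 2.85 and 2.95 CPM in control mice, which were apart (log2 fold change -0.52 ± 0.22, SE; edgeR adjusted p = 0.195). Slc25a46, an outer membrane protein that acts in mitochondrial fission, Slc25a35 and Slc25a45 overlapped, with log2 fold changes of -0.04, 0.15 and 0.28. 31.55% of the exon bases of Slc25a35 lie opposite exons of Rangrf. Slc25a43 had 0 to 3 counts per mouse, Slc25a48 had 1 count in 1 mAktDKO mouse, Slc25a53 had 1 to 6 counts, and Slc25a54 had none in any mouse. A count of 0 here allows a level of up to 0.18 to 0.23 CPM, by a limit of 3 counts that covers counting error only.

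The most abundant carriers were lower, Slc25a25 by the least and depending on single mice as given above. All 5 with a mean of 100 CPM or more, Slc25a4, Slc25a3, Slc25a12, Slc25a25 and Slc25a11, were below control in mAktDKO, at a median of -0.33 on the log2 scale, and 4 of the 5 did not overlap between groups. Of all 1193 tested genes at that level, 62% were lower, 30% did not overlap with mAktDKO below, and the median was -0.07. The limit of 100 CPM was chosen after the values were seen. Slc25a51 fell just below it, at means of 99.29 CPM in mAktDKO and 96.83 CPM in control mice, with a log2 fold change of 0.04. Of the carriers at 20 to 100 CPM, 6 of 9 (66.7%) were lower, against 51.9% of all genes of that level, and 1 did not overlap with mAktDKO below (11.1%, against 22.4%). Of those at 5 to 20 CPM, 7 of 15 (46.7%, against 47.6%) were lower and 3 did not overlap in that direction (20%, against 15.9%). Of those under 5 CPM, 4 of 8 (50%, against 37.4%) were lower and 3 did not overlap in that direction (37.5%, against 6.01%). Of these 3, Slc25a14, with 10 to 20 counts per mouse, and Slc25a30 overlapped by library totals. So did Slc25a11 among the carriers at 100 CPM or more. Across the 37 carriers, Pearson's r between log2 level and log2 fold change was -0.15, and across all 12892 genes it was -0.19. Genes of 1 set of libraries share their depth and scaling and are not independent, so these are descriptions.

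**Figure D3:**
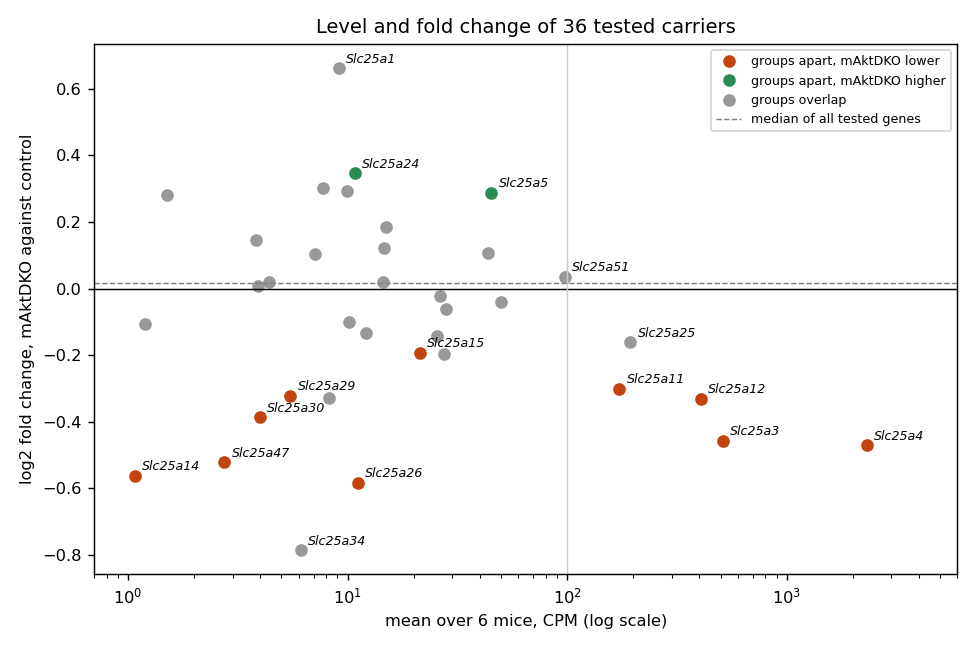
Each point is 1 of 36 tested carriers, placed by its mean over the 6 mice in CPM (log axis) and its log2 fold change of mAktDKO against control. Colours show whether the groups overlapped, and the vertical line marks 100 CPM, a limit chosen after the values were seen. The 5 points to its right all lie below 0, while those to its left lie on both sides.

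Because few carriers hold most of the RNA of the family, its sum followed them. Slc25a4 alone made up 54.65, 52.06 and 54.1% of the summed carrier CPM in mAktDKO and 59.68, 57.05 and 55.38% in control mice. All 46 carriers summed to 3785, 3441 and 3659 CPM in mAktDKO and to 4987, 4861 and 4227 CPM in control mice, means of 3628 ± 173.7 and 4692 ± 407.4 (SD, n = 3). The mAktDKO mean was 77.34% of control, and its ratio to control was 0.80 without control mouse 2. As a share of all counts, without TMM correction, the carriers held 0.4061, 0.374 and 0.3609% in mAktDKO and 0.4618, 0.4718 and 0.4069% in control mice. That was 85.12% of control (ratio 0.866 without control mouse 2), with mAktDKO mouse 1 next to control mouse 4. Without Slc25a4 the sums were 1716, 1650 and 1679 against 2011, 2087 and 1886 CPM, or 84.32% of control (ratio 0.847 without control mouse 2), and the groups remained apart. The carriers under 100 CPM, a limit chosen after the values were seen, summed to 559.7, 552.2 and 540.1 CPM in mAktDKO and to 561.2, 561 and 534 CPM in control mice, or 99.75% (ratio 1.01 without control mouse 2), and overlapped.

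Against the fibre markers, which were themselves lower in mAktDKO, the differences were smaller. Per 1000 counts of the 7 markers, all carriers held 31.6, 30.08 and 28.59 counts in mAktDKO and 37.93, 35.37 and 33.6 in control mice, or 84.45% of control (ratio 0.873 without control mouse 2). Slc25a4 held 17.27, 15.66 and 15.47 against 22.64, 20.18 and 18.61, or 78.79% (0.832 without that mouse), and Slc25a3 held 3.75, 3.62 and 3.364 against 4.79, 4.53 and 4.17, or 79.64% (0.823 without it). The groups were apart in each of these.

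**Figure D4:**
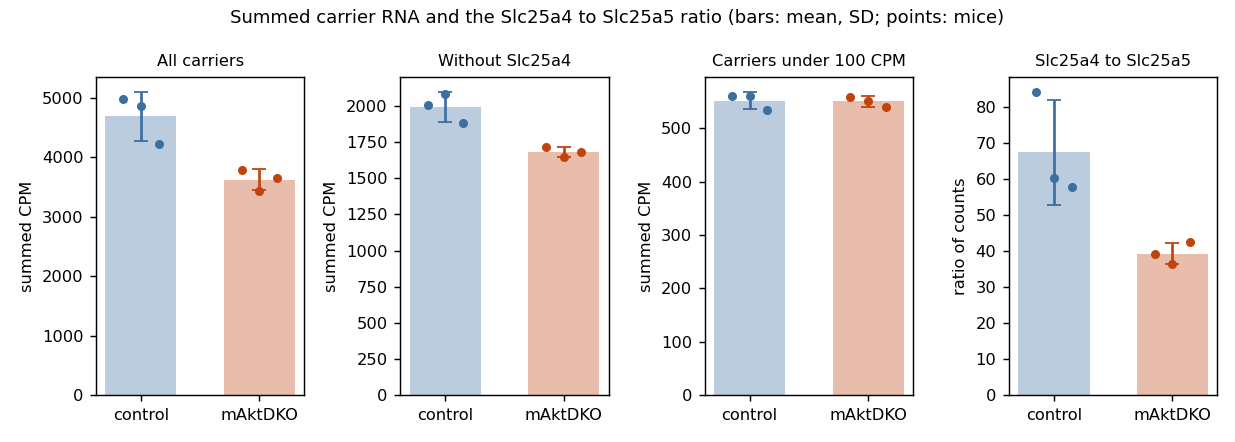
Bars show the group mean and SD (n = 3) and points the mice, for the summed CPM of all carriers, of all without Slc25a4 and of those under 100 CPM, and for the ratio of Slc25a4 to Slc25a5 counts. The mAktDKO points lie below all control points in every panel but that of the carriers under 100 CPM.

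The genes that work beside these carriers were described from lists chosen by function. None of the 44 tested genes in the 7 lists passed an edgeR adjusted p of 0.01, and 2 passed 0.05 (background 1.18%), Mpc2 and Timm13, both lower in mAktDKO. Both calls ended with scaling by library totals (adjusted p = 0.0612 and 0.0626), and that of Timm13 with upper quartile scaling (0.0501). The call of Mpc2 also ended without any 1 mAktDKO mouse or control mouse 3 (0.0942 to 0.22), and that of Timm13 without any 1 mouse but control mouse 4 (0.0535 to 0.22). Others passed 0.05 only under some alternatives. Sfxn3, which was higher, did so with scaling by library totals (0.0471), with no filter (0.0474), with at least 10 counts in every mouse (0.0496) and without control mouse 2 (0.0475). Mdh1 did so with no filter (0.0319), with at least 10 counts in every mouse (0.0441) and without control mouse 4 (0.0361), and Letm1 under the same settings (0.0427, 0.0491 and 0.0464). Mdh2 did so without control mouse 4 (0.0462). At an unadjusted p under 0.05, 17 were lower (background 13.1%) and 4 higher (background 11.4%). DESeq2 called 6 at 0.01 (Mpc2, Letm1, Vdac1, Timm13, Mdh1 and Mdh2), all lower, where its background was 3.46%.

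Carrier proteins filed under other symbols were 2 lower and 2 higher of 4 tested. Ucp3, the uncoupling protein of skeletal muscle, was at 35.89, 32.65 and 27.57 CPM in mAktDKO and at 29.71, 58 and 57.23 CPM in control mice, where mouse 2 was as low as the mAktDKO mice (log2 fold change -0.59 ± 0.23, SE; edgeR adjusted p = 0.161). Without that mouse the log2 fold change was -0.85 (edgeR adjusted p = 0.0133), and without any other 1 mouse the adjusted p was 0.248 to 0.362. Ucp2 was higher and Mtch2 lower (0.24 and -0.15), and Ucp1, the uncoupling protein of brown fat, had no count in any mouse. The log2 fold change of Ucp2 was 0.16 without control mouse 2. Among the pyruvate carrier and the sideroflexins, 1 of 7 was lower and 6 were higher. Mpc2, a subunit of the pyruvate carrier, was at 106.1, 89.26 and 97.51 CPM in mAktDKO and at 149.5, 146.9 and 129.6 CPM in control mice (log2 fold change -0.54 ± 0.09, SE; edgeR adjusted p = 0.0467). Its partner Mpc1 overlapped between groups (0.03, 146.8 to 160.5 against 141.8 to 167.1 CPM). The sideroflexins Sfxn3 and Sfxn1, of which Sfxn1 carries serine, had log2 fold changes of 0.49 and 0.58.

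The outer membrane channels, through which solutes reach the carriers, were lower in all 3 cases, and all were apart, as were 16.6% of all tested genes and 30% of those at 100 CPM or more in that direction. Vdac1 was at 915.9, 821.3 and 961.3 CPM in mAktDKO and at 1259, 1157 and 1155 CPM in control mice (log2 fold change -0.40 ± 0.09, SE; edgeR adjusted p = 0.0624), Vdac3 had a log2 fold change of -0.36 and Vdac2 of -0.16. With scaling by library totals these came to -0.27 for Vdac1, -0.22 for Vdac3 and -0.03 for Vdac2. Of 9 genes of the pathway that inserts carriers into the inner membrane, 7 were lower. Timm13, a small chaperone of the intermembrane space, was at 21.37, 16.35 and 17.21 CPM in mAktDKO and at 33.35, 28.82 and 26.99 CPM in control mice (log2 fold change -0.70 ± 0.13, SE; edgeR adjusted p = 0.0474), and Timm10 and the insertion channel Timm22 had log2 fold changes of -0.44 and -0.26.

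The enzymes of the shuttles and of citrate export were lower in 6 of 9. Mdh1, the cytosolic malate dehydrogenase of the malate-aspartate shuttle, was at 357.2, 337.7 and 327.5 CPM in mAktDKO and at 549.2, 509.7 and 426.4 CPM in control mice (log2 fold change -0.54 ± 0.11, SE; edgeR adjusted p = 0.0506). Its matrix counterpart Mdh2 had a log2 fold change of -0.41 and the malic enzyme Me1 of -0.44, while Gpd1 and Gpd2 of the glycerol phosphate shuttle were at -0.09 and 0.02. Of 8 genes of calcium uptake and cation exchange 6 were lower. Letm1 was at -0.40 and Smdt1, a subunit of the calcium uniporter, also at -0.40, while Slc8b1, the sodium/calcium exchanger, was at 0.50. All 4 mitochondrial ABC transporters were lower, with a median of -0.30, and Abcb8, Abcb6 and Abcb10 were apart between groups (background 16.6%).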

How the data were processed

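RNA of whole EDL from 3 mAktDKO and 3 control mice was depleted of ribosomal RNA and sequenced in pairs of 37-base reads from directional libraries. The authors aligned the reads to mm10 with STAR and deposited RSEM 1.3.1 estimated counts per gene symbol (expected counts). The submitters' processing notes name STAR 2.6.1b. The annotation and strand setting of the counting are not given in the sources used here. Of each library's values, 3.36 to 4.09% were not whole.

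The counts were rounded, filtered (filterByExpr, minimum count 10; 12892 genes), scaled by TMM and tested with edgeR 4.0.16's quasi-likelihood test (R 4.3.3), with Benjamini-Hochberg adjustment over all genes and a threshold of 0.01. SE is the size of the fold change divided by the square root of F. CPM are TMM-scaled. DESeq2 1.42.0, other scalings, other filters, removal of a trend with transcript length and leaving out each mouse were alternatives. Samples were taken as separate mice. The edgeR and DESeq2 p-values set the group difference against the spread between these mice, estimated with information from all genes. That spread would be technical if the samples were not separate mice. On simulated data of 12892 genes with 200 changed 2-fold, edgeR recovered 174 with 1 false call and DESeq2 160 with 2.

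The members and all lists were chosen with earlier results of these data known. Per-mouse values are given for the 12 carriers with the smallest p (of which 1 is counted but not reported by itself here), the 4 highest per kilobase and close pairs, and, in the other lists, up to 3 genes of smallest p are named, some with per-mouse values. Others described beside them (Slc25a51 per mouse, Mpc1, Gpd1, Gpd2, Acly, Adipoq, Hbb-bs, Hbb-b1) were chosen after their values were seen. Positions are from RefSeq GRCm38.p6 and sequences from GENCODE M21, both of the build of the files, with all 46 carriers matched.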

Additional observations from a re-analysis of the deposited data

How the results depend on the processing

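Simulation covered 2-fold changes, which are greater than that of any tested carrier, so how often differences of the size seen here are detected was not tested. Of 481 carrier values under the 13 alternatives that can move a fold change, 24 changed sign, in 11 carriers whose reported log2 fold changes lay between -0.13 and 0.10, and those of Slc25a26, Slc25a3, Slc25a4, Slc25a12, Slc25a11, Slc25a24 and Slc25a5 kept their direction under all of them. The number of carriers called was 2 by DESeq2 and 1 at an adjusted p under 0.05, and that of the related genes 6 and 2. With library totals the median of the carriers was 0.0354 and that of all genes 0.156, a shift of all genes, and the carriers lay -0.12 from it as they did under TMM. The scaling moved 20 carriers and 12 of 21 related genes by over 1.5 times without a change of sign, by a shift of 0.13 to 0.15 common to them, for example to -0.00470 for Slc25a42, -0.26 for Letm1, -0.27 for Mdh2, -0.26 for Abcb8 and -0.12 for Timm22. There, Slc25a13 was at 0.0348, Slc25a16 at 0.0721, Slc25a28 at 0.0354, Slc25a32 at 0.00911, Slc25a44 at 0.119 and Slc25a46 at 0.099. Groups that were apart under TMM overlapped by library totals in Slc25a11, Slc25a14, Slc25a15, Slc25a30, Vdac2, Abcb6 and Abcb10, among others. With the trend on transcript length removed, Slc25a28 was at 0.00512 and Slc25a51 at -0.0104, and 7 carriers and 3 related genes moved by over 1.5 times (Smdt1 to -0.23, Timm10 to -0.28 and Vdac2 to -0.10 among the latter). Leaving out 1 mouse moved the median of the carriers from -0.11 to -0.0510. It gave -0.32 to 0.0125 for Slc25a13, -0.16 to 0.0109 for Slc25a16, -0.0861 to 0.42 for Slc25a22, -0.27 to 0.14 for Slc25a27, -0.0973 to 0.13 for Slc25a33, -0.14 to 0.16 for Slc25a40, -0.0895 to 0.0991 for Slc25a44, -0.0794 to 0.0342 for Slc25a46 and -0.00343 to 0.0613 for Slc25a51. Without a change of sign, 17 carriers moved by over 1.5 times, those not given above with their groups running from -0.21 to -0.00332 for Slc25a28, -0.27 to -0.0341 for Slc25a32, -0.34 to -0.0950 for Slc25a39, -0.45 to -0.21 for Slc25a38, 0.0361 to 0.26 for Slc25a35, 0.0428 to 0.14 for Slc25a36, 0.0460 to 0.27 for Slc25a37, 0.0869 to 0.37 for Slc25a23 and 0.17 to 0.40 for Slc25a45. The cause was not tested. No paired analysis was possible because numbers in the table (controls 2 to 4) and in the labels (controls 1 to 3) differ and tie no column to a sample.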
